A study of Mus musculus with 6 samples.

Results

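Immediate early genes are the first genes a cell transcribes after a stimulus. Factors that are already present when the stimulus arrives, such as CREB and SRF, switch them on without new protein synthesis, and in brain they are widely read as a record of recent neuronal firing, growth factor signalling or stress. Most encode transcription factors of the AP-1, EGR and NR4A families, while Arc encodes an effector protein that acts at synapses. The set described here held 10 genes, Fos, Fosb, Jun, Junb, Egr1, Egr2, Nr4a1, Npas4, Arc and Ier2, chosen by gene symbol as familiar members of this class. All 10 were present among the 18058 genes of the deposited table.

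Whole brainstems were taken from naive, uninjected mice at 1 month of age and snap-frozen, and their total RNA was sequenced. The wild type group (WT) held 3 C57BL/6J mice. The other group held 3 Rag1-/- mice, which carry a germline null allele of a recombinase subunit in every cell and have no mature T or B cells, and for which the study names the strain B6.129S7-Rag1tm1Mom/J. Each mouse gave 1 library. No group received a treatment in this design, and the values are levels in whole tissue, where fewer expressing cells and less RNA per cell cannot be told apart.

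Several features of the libraries bear on these genes. Depth, estimated from the smallest steps among low values, was 31600000 to 46400000 reads, and 3 reads corresponded to 0.0646 to 0.0950 CPM (counts scaled to library size), so all 10 genes lay above this floor in every library. Rag1 transcripts lay at 0.115 to 0.388 CPM in the WT libraries and at 2.60 to 4.02 CPM in the libraries labelled Rag1-/-. They were therefore higher, not lower, under that label. Transcript level alone does not show whether an allele is functional, and each direction below rests on the label. Xist lay at 172 and 177 CPM in WT replicates 1 and 2 but at 2.93 CPM or less in the other 4 libraries, so the sex-linked difference divides the WT group. Markers of other tissue also differed among the WT libraries. Summed pituitary markers were at 657 CPM in WT replicate 3, 57.3 CPM in WT replicate 2 and 2.72 to 5.39 CPM in the other 4 libraries. Summed choroid plexus markers were at 981 CPM in WT replicate 1, 1235 CPM in WT replicate 2 and 488 to 634 CPM in the other 4, and red blood cell markers ran from 647 CPM in WT replicate 1 to 1882 CPM in WT replicate 3. Neuronal markers were present in every library, at summed levels of 4930 to 5136 CPM in WT and 4866 to 4949 CPM in Rag1-/-, with none of the 12 at 0.

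Promoter sequence is described next for the motifs it holds, and its relation to the levels of these genes was not tested. RefSeq windows (GRCm38.p6) were found for 7 of the 10 genes, Fos, Fosb, Jun, Junb, Egr2, Nr4a1 and Npas4, and the 250 bases before each start were searched on both strands. TGACG, the core of the cyclic AMP response element (CRE) that CREB-type factors can bind, was present in 6 of these 7 windows and in 17.8% of all 32851 windows, and Jun was the exception. The full CRE, TGACGTCA, was in 0 of 7 (1.55% of all windows), and the AP-1 site TGANTCA was in 0 of 7 (6.75%). GCGNGGGCG, the letters of an EGR site, occurred in Fosb and Nr4a1 (4.70% of all windows), the TATAAA box in Fos (12.4%), and the CArG box, the element bound by SRF, in Egr2 (1.47%). Such matches describe the letters of these windows and are not evidence of binding. Sequence farther from the start, and that of Egr1, Arc and Ier2, was not searched.

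Stretches that carry most of these matches are given 5′ to 3′ on the strand of the gene, with capitals marking TGACG (or CGTCA, its reverse complement), the EGR site (in Nr4a1 read as its reverse complement), the TATAAA box and the CArG box. They lie at chr12:85473750-85473889 (plus strand) for Fos, chr7:19310080-19310109 (minus) for Fosb, chr8:84978819-84978873 (minus) for Junb, chr4:95052223-95052282 (minus) for Jun, chr10:67537794-67537823 (plus) for Egr2 and chr15:101266596-101266845 (plus) for Nr4a1. None of these bases is in an annotated exon. The stretch of Npas4 is left out, because its whole window lies in an annotated exon of Npas4, and that of Egr2 leaves out the match at -111. Jun, with no capitals, is shown as the window that lacked every one of these motifs.
Fos: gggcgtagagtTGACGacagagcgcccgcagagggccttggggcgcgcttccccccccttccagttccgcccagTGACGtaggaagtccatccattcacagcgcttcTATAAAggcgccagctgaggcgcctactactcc
Fosb: cgggTGACGcaagcGCGGGGGCGggtcccg
Junb: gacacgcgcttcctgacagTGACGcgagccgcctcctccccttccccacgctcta
Jun: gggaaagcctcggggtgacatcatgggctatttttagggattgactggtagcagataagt
Egr2: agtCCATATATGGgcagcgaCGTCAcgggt
Nr4a1: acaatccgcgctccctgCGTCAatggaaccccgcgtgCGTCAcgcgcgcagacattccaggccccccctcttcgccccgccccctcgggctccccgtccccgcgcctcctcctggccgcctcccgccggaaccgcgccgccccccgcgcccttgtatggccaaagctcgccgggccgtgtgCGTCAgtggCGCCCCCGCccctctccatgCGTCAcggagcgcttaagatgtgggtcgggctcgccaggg
Nr4a1 held the most CRE cores, with 4 that began at -233, -213, -69 and -40 from the start and an EGR site at -60. In Fos the CRE cores began at -129 and -66 and the TATAAA box at -33, and in Egr2 the CArG box at -72 lay between CRE cores at -111 and -55.

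The design compares transcript levels between WT and Rag1-/- brainstems, a comparison the study made to look for molecules behind the effect of T cell deficiency on low-grade glioma formation. For the immediate early genes, no difference passed the test. limma-trend, a linear model that shares variance information across genes, was fitted to log2(CPM + 0.1) for the 16762 genes that averaged 0.1 CPM or more, and all 10 genes passed that filter. It called 0 of the 10 at a Benjamini-Hochberg adjusted p under 0.05, against 0.0477% of all tested genes (8 genes), and 0 of the 10 reached even an unadjusted p of 0.05, against 11.6% of all tested genes. In 0 of the 10 did the 3 libraries labelled Rag1-/- lie wholly below the WT libraries, as 14.4% of tested genes did, or wholly above them, as 3.98% did. The estimate was lower in Rag1-/- for 7 genes and higher for Jun, Egr1 and Arc, and the median log2 fold change of the 10 was -0.14, against -0.051 for all tested genes. In the following, n = 3 mice per genotype, errors are SD, and fold changes are Rag1-/- relative to WT with limma-trend 95% intervals.

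**Figure D1:**
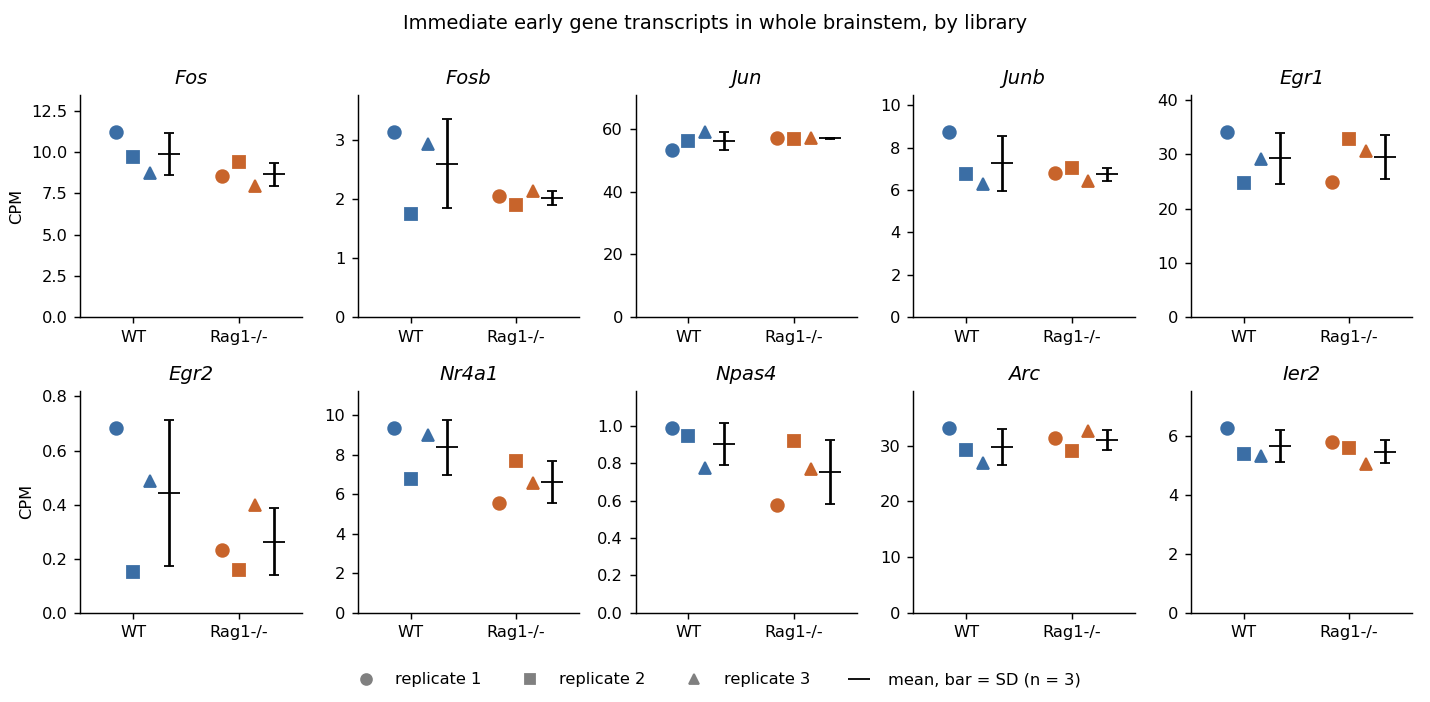
Transcript level (CPM, linear axes from 0) of each immediate early gene in 3 WT (blue) and 3 Rag1-/- (orange) libraries, with marker shapes for replicates and a black mean with SD. The genotypes overlap in all 10 panels, and the WT circle (replicate 1) is the highest point in every panel but that of Jun.

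The Fos family supplies the partners that Jun proteins need to form the stable AP-1 dimer. Fos (12:85473901-85477270, plus strand, mm10), the prototype of the class, was measured at 11.2, 9.69 and 8.74 CPM in WT replicates 1 to 3 and at 8.55, 9.41 and 7.97 CPM in Rag1-/- replicates 1 to 3. WT replicate 1 was the highest and Rag1-/- replicate 3 the lowest, and the other 4 interleaved. The means were 9.88 ± 1.25 and 8.64 ± 0.723 CPM, a log2 fold change of -0.19 (-0.43 to 0.059, limma-trend adjusted p = 0.524), which was -0.093 without WT replicate 1. Fosb (7:19302696-19310045, minus strand), whose stable truncated product builds up during repeated stimulation, lay at 3.14, 1.74 and 2.93 CPM in WT and at 2.05, 1.90 and 2.14 CPM in Rag1-/-. WT replicates 1 and 3 were above all Rag1-/- libraries while WT replicate 2 was below all of them. The means of 2.61 ± 0.752 and 2.03 ± 0.119 CPM gave a log2 fold change of -0.30 (-0.79 to 0.18, limma-trend adjusted p = 0.590), which was -0.56 without WT replicate 2, -0.20 without WT replicate 3 and -0.15 without WT replicate 1.

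Among the Fos and Jun genes of the set, Jun and Junb had the smaller genotype estimates. Jun (4:95049036-95052222, minus strand), which can bind DNA as a homodimer or with Fos proteins, was at 53.3, 56.1 and 59.0 CPM in WT and at 57.1, 56.8 and 57.0 CPM in Rag1-/-. All 3 Rag1-/- values fell between WT replicates 2 and 3, and WT replicate 1, highest for the 9 other genes, was the lowest for Jun. The log2 fold change was 0.023 (-0.086 to 0.13, limma-trend adjusted p = 0.873), the narrowest interval of the 10 genes. Junb (8:84976909-84978748, minus strand), a weaker activator that can restrain Jun, lay at 8.73, 6.74 and 6.29 CPM in WT and at 6.79, 7.03 and 6.41 CPM in Rag1-/-. Apart from WT replicate 1, the 5 libraries were within 6.29 to 7.03 CPM, and the log2 fold change was -0.091 (-0.38 to 0.19, limma-trend adjusted p = 0.799), which was positive, at 0.048, without WT replicate 1.

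The EGR genes encode zinc finger factors. Egr1 (18:34861207-34864956, plus strand), a marker of neuronal activity and plasticity, was at 34.1, 24.6 and 29.0 CPM in WT and at 24.9, 32.9 and 30.7 CPM in Rag1-/-, so that the highest and the lowest library were both WT. The means of 29.2 ± 4.73 and 29.5 ± 4.10 CPM differed by a log2 fold change of 0.015 (-0.28 to 0.31, limma-trend adjusted p = 0.975). Egr2 (10:67537869-67542188, plus strand), also known for its part in Schwann cell myelination and hindbrain patterning, was the least abundant gene, at 0.684, 0.151 and 0.489 CPM in WT and 0.231, 0.159 and 0.399 CPM in Rag1-/-. WT replicate 2 and Rag1-/- replicate 2 were the libraries nearest to the floor of 3 reads, and the log2 fold change of -0.48 carried the widest interval of the 10 genes (-1.49 to 0.53, limma-trend adjusted p = 0.689). It was -0.96 without WT replicate 2, -0.74 without Rag1-/- replicate 3, -0.26 without Rag1-/- replicate 2 and -0.14 without WT replicate 1. With a pseudocount of 1 the estimate was -0.18.

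Nr4a1 (15:101266846-101274794, plus strand), an orphan nuclear receptor induced by many stimuli, had the smallest p of the 10 genes. It was at 9.37, 6.78 and 8.996 CPM in WT and at 5.57, 7.70 and 6.55 CPM in Rag1-/-. WT replicates 1 and 3 lay above every Rag1-/- library, while WT replicate 2 lay below Rag1-/- replicate 2. The means were 8.38 ± 1.40 and 6.61 ± 1.06 CPM, a log2 fold change of -0.34 (-0.68 to 0.010), with p = 0.0557 before and 0.441 after adjustment by limma-trend and p = 0.2 in the exact two-sided permutation test, whose smallest possible p here is 0.1. The estimate was -0.48 without WT replicate 2 (limma-trend adjusted p = 0.335) and -0.22 without Rag1-/- replicate 1.

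Npas4 (19:4984354-4989971, minus strand), a factor that responds selectively to calcium entry in neurons, was low, at 0.991, 0.948 and 0.776 CPM in WT and 0.578, 0.919 and 0.769 CPM in Rag1-/-. Its lowest value was Rag1-/- replicate 1 and the other 5 libraries overlapped, with a log2 fold change of -0.25 (-0.73 to 0.23, limma-trend adjusted p = 0.667), which was -0.38 without Rag1-/- replicate 2 and -0.089 without Rag1-/- replicate 1. The Npas4 estimate was -0.12 with a pseudocount of 1 and -0.12 after quantile normalization. Arc (15:74669081-74672570, minus strand), which promotes AMPA receptor removal at synapses, was at 33.2, 29.3 and 26.8 CPM in WT and 31.3, 29.0 and 32.6 CPM in Rag1-/-. The 3 Rag1-/- values lay inside the WT range, and the log2 fold change was 0.060 (-0.13 to 0.25, limma-trend adjusted p = 0.800). Ier2 (8:84661331-84662852, minus strand), a small nuclear protein induced by growth factors, was at 6.28, 5.38 and 5.32 CPM in WT and 5.78, 5.58 and 5.04 CPM in Rag1-/-, again interleaved. Its log2 fold change was -0.048 (-0.29 to 0.19, limma-trend adjusted p = 0.880), and this estimate turned positive under quantile normalization (0.023), without WT replicate 1 (0.027) and without Rag1-/- replicate 3 (0.0079).

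A term for high Xist, which WT replicates 1 and 2 shared, leaves WT replicate 3 as the only WT library compared with Rag1-/-. Estimates with this term therefore rest on 1 WT mouse, the one with the most pituitary markers, and only their sizes are given. The term moved most of the estimates above. The log2 fold change with the term was -0.019 for Fos, -0.51 for Fosb, -0.050 for Jun, 0.097 for Junb and 0.012 for Egr1. It was -0.75 for Egr2, -0.45 for Nr4a1, -0.055 for Npas4, 0.20 for Arc and 0.036 for Ier2. Jun, Junb and Ier2 thereby changed sign. Without any such term, Jun turned negative without WT replicate 1 (-0.014), Arc without WT replicate 3 (-0.012), and Egr1 without WT replicate 2 (-0.10), Rag1-/- replicate 2 (-0.068) or Rag1-/- replicate 3 (-0.018).

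**Figure D2:**
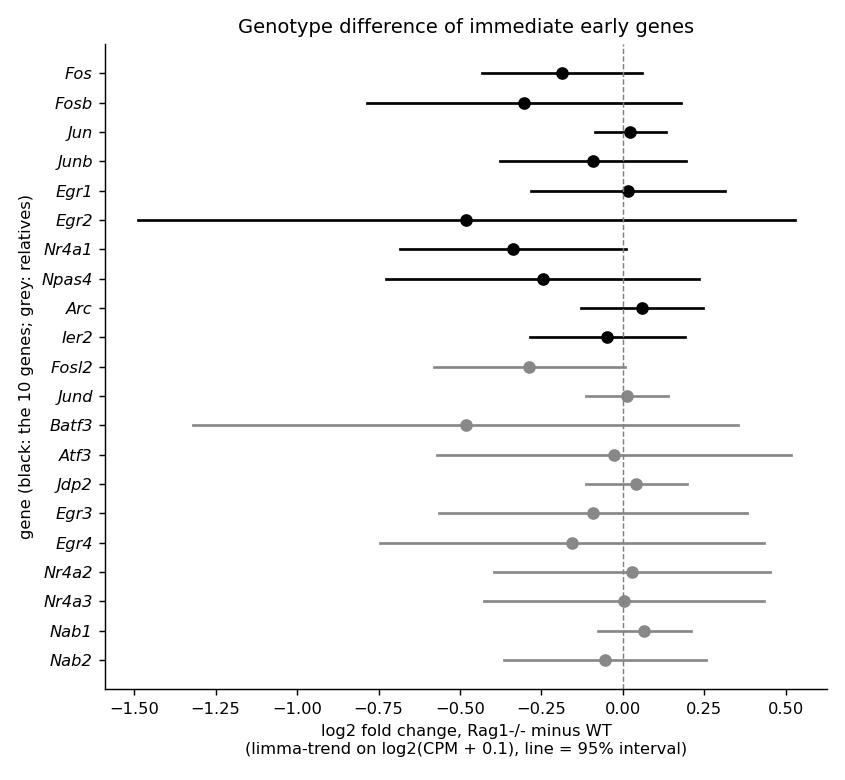
Log2 fold change (Rag1-/- relative to WT, limma-trend on log2(CPM + 0.1)) with its 95% interval for the 10 immediate early genes (black) and 11 relatives (grey), 3 mice per genotype. All 21 intervals include 0, and those of Egr2 and Batf3, both low in abundance, are the widest.

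Per transcript length the 10 genes spanned a 149-fold range. In CPM per kb, averaged over the 6 libraries with the SD, Jun was highest at 17.7 ± 0.585, followed by Arc at 9.94 ± 0.795 and Egr1 at 9.67 ± 1.30. Fos at 4.39 ± 0.539, Junb at 3.87 ± 0.492, Ier2 at 3.65 ± 0.282 and Nr4a1 at 3.03 ± 0.596 formed a middle tier. Fosb at 0.613 ± 0.152, Npas4 at 0.229 ± 0.0424 and Egr2 at 0.119 ± 0.0714 were lowest. The ranges over libraries overlapped between Arc and Egr1, between each pair of neighbours from Fos down to Nr4a1, and between Npas4 and Egr2, so the spread over libraries did not separate these neighbours. Compared within each library, Fos was nonetheless above Junb and Npas4 above Egr2 in 6 of 6 libraries, Ier2 above Nr4a1 in 5, Junb above Ier2 in 4 and Arc above Egr1 in 3. Jun and Arc, Egr1 and Fos, Nr4a1 and Fosb, and Fosb and Npas4 did not overlap.

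The share that each gene held of its family differed between families. Of the summed AP-1 level (CPM per kb of 7 Fos and Jun genes), Jund, a family member with constitutive expression that is outside the 10, made up 74.8% ± 1.19 in WT and 75.7% ± 0.355 in Rag1-/-. Jun followed at 15.5% and 15.8%, Fos at 4.15% and 3.62%, Junb at 3.55% and 3.30%, Fosl2 at 1.36% and 1.11% and Fosb at 0.604% and 0.475%, and Fosl1 was under 0.1 CPM in every library. Of the 4 EGR genes, Egr1 held 85.1% and 86.7% and Egr2 1.25% and 0.804%. The NR4A level was more evenly divided. Nr4a1 held 47.7% ± 4.27 in WT and 41.6% ± 5.09 in Rag1-/- (exact two-sided permutation p = 0.2), and Nr4a2, a receptor needed by midbrain dopamine neurons, 38.8% and 43.5%. Nr4a3 held 13.5% ± 0.999 and 14.9% ± 0.551, without overlap between genotypes (exact permutation p = 0.1, the smallest possible for 3 against 3). It was the only share of these 3 families to reach that p, which was not adjusted for the shares compared. The level of Nr4a3 itself overlapped between genotypes (log2 fold change 0.0027, limma-trend adjusted p = 0.996).

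Most of these genes shared the library in which they were highest. Of the 10 genes, 9 had their highest value in WT replicate 1, the exception being Jun, whereas 20.1% of all tested genes were highest in that library. On average over the 10 genes, WT replicate 1 lay 0.30 above the mean of the gene on the log2 scale, with a median of 0.26 and 9 of the 10 genes above their own mean (59.9% of all tested genes). The other libraries had averages of -0.13 and 0.069 for WT replicates 2 and 3 and of -0.15, -0.053 and -0.032 for Rag1-/- replicates 1 to 3. Egr2 weighs on these averages, with 0.51 in WT replicate 3 and -0.68 in Rag1-/- replicate 2, and the medians of these libraries had the opposite sign, at -0.033 (4 of 10 genes above their own mean, 58.9% of all genes) and 0.012 (7 of 10, 43.7% of all genes). The level in WT replicate 1 relative to the mean of the other 5 libraries was 2.40-fold for Egr2, 1.46-fold for Fosb, 1.32-fold for Nr4a1, 1.31-fold for Junb, 1.26-fold for Fos, 1.24-fold for Npas4, 1.199-fold for Egr1, 1.16-fold for Ier2 and 1.11-fold for Arc. The median over the 10 genes was 1.25-fold, against 1.02-fold over all tested genes, of which 5% exceeded 1.33-fold. Over the next highest library the margin was smaller, from 1.02-fold for Arc to 1.40-fold for Egr2. Under quantile normalization 7 of the 10 genes (15.96% of all genes), and under median-of-ratios size factors 8 of the 10 (15.85%), were highest in WT replicate 1. This is 1 mouse, and no test of it was made.

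**Figure D3:**
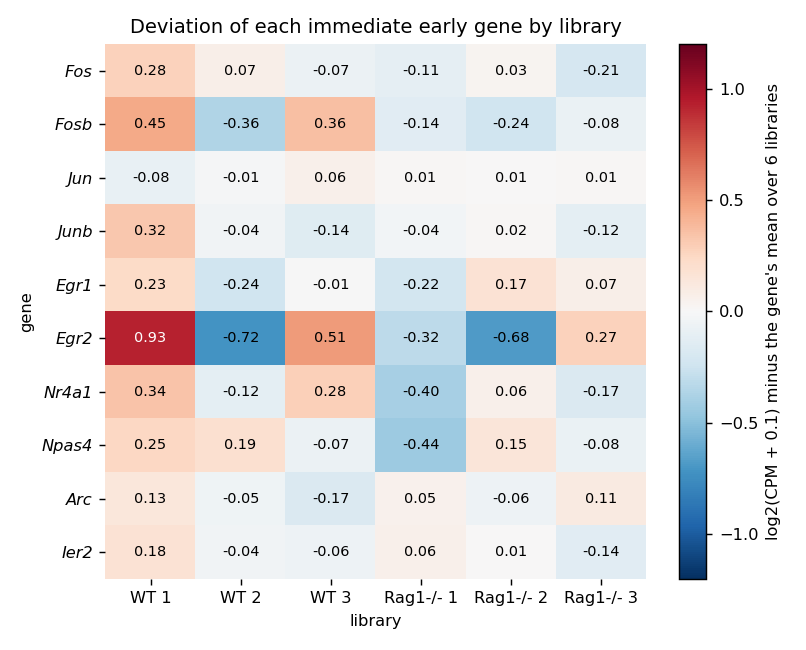
Deviation of each immediate early gene (rows) in each library (columns) from its own mean over the 6 libraries, in log2(CPM + 0.1), red above and blue below. The column of WT replicate 1 is above the mean for 9 genes, from 0.13 for Arc to 0.93 for Egr2, and below it for Jun at -0.084.

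The lowest libraries were scattered. Fosb, Egr1 and Egr2 were lowest in WT replicate 2, Junb and Arc in WT replicate 3, Jun in WT replicate 1, Nr4a1 and Npas4 in Rag1-/- replicate 1, and Fos and Ier2 in Rag1-/- replicate 3. WT replicates 1 and 2, which shared high Xist, were therefore at opposite ends for Fosb, Egr1 and Egr2. WT replicate 1 held the highest summed neuronal markers, 5136 CPM, close to 5133 CPM in WT replicate 2, the lowest summed oligodendrocyte markers, 19771 CPM against 20855 to 26818 CPM in the other 5 libraries, and 3.45 CPM of pituitary markers. It was also lowest for summed astrocyte markers (4256 CPM), oligodendrocyte precursor markers (829 CPM) and red blood cell markers (647 CPM), highest for the heat shock genes (3476 CPM), and second to WT replicate 2 for choroid plexus markers (981 CPM). Their part in the levels of the immediate early genes was not tested.

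The spread between mice of 1 genotype was then compared with that of other transcripts. The median within-genotype SD on the log2(CPM + 0.1) scale was 0.2003 for the 10 genes. It was 0.103 for all tested genes and 0.109 for the 12037 genes in the same CPM range. That range runs from the mean of Egr2, 0.352 CPM, to that of Jun, 56.6 CPM, so it is not matched to each gene. Egr2 varied most, with an SD of 0.693 and a 4.54-fold range over the 6 libraries, followed by Fosb at 0.319, Npas4 at 0.241, Nr4a1 at 0.240 and Egr1 at 0.221. Egr2 and Npas4 are the least abundant of the 10 genes, and counting error was not separated from variation between mice. Jun varied least, with an SD of 0.0518 and a 1.11-fold range. The SD was larger among WT than among Rag1-/- mice for 9 of the 10 genes, Npas4 being the exception, and for 55.5% of all genes. WT replicate 1, the highest library for 9 of the 10 genes, enters the WT SD. Without it the median within-genotype SD was 0.154. The WT group also mixed high and low Xist, while all Rag1-/- libraries were low, and its part in the spread was not tested. The median SD of the 10 was 0.206 in WT and 0.109 in Rag1-/-, against 0.0999 and 0.0880 for all genes.

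**Figure D4:**
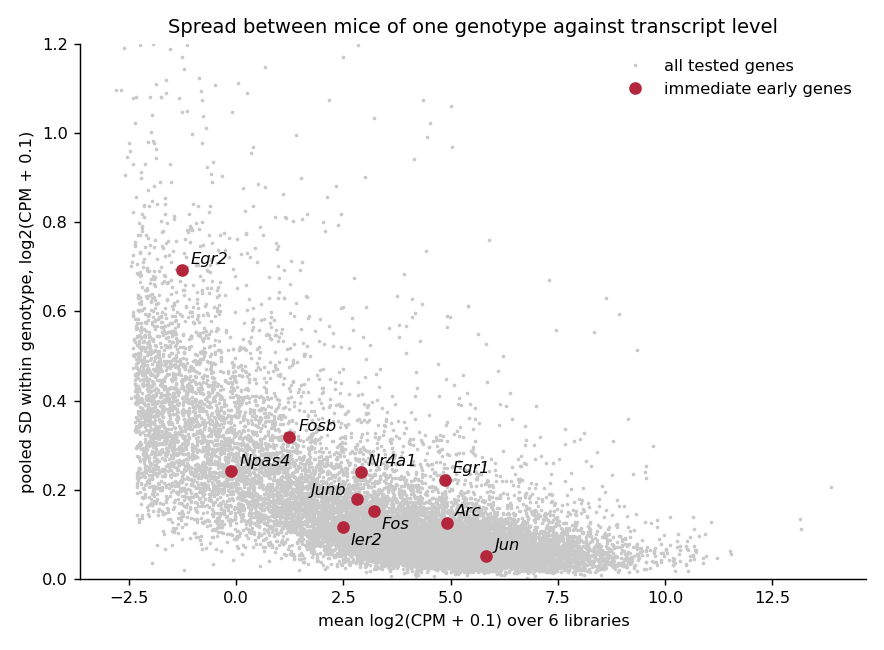
Pooled within-genotype SD of log2(CPM + 0.1) against mean log2(CPM + 0.1) over 6 libraries, for all 16762 tested genes (grey) and the immediate early genes (red); 67 genes lie beyond the vertical axis. Egr2 stands highest at 0.693 and Jun lowest at 0.0518.

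Relatives of these genes, taken from a list of 13 further AP-1, EGR and NR4A genes and EGR co-repressors, were compared in the same fit. Of the 11 that passed the filter (Fosl1 and Batf did not), limma-trend called 0 and 0 reached an unadjusted p of 0.05, with 6 lower and 5 higher and a median log2 fold change of -0.027. Fosl2, a Fos-related antigen, had the smallest p. It was at 9.84, 8.40 and 12.2 CPM in WT and 7.88, 8.11 and 8.66 CPM in Rag1-/- (log2 fold change -0.29, limma-trend adjusted p = 0.438). Its estimate was -0.57 with the Xist term, which compares Rag1-/- with WT replicate 3 alone, and -0.15 without that library. Nr4a2, at 13.5 CPM against 7.65 to 10.9 CPM in the other 5 libraries, and Nr4a3, at 7.03 CPM against 3.94 to 5.89 CPM, were highest in WT replicate 1, as Nr4a1 was. Egr3 and Egr4 were not, with maxima in Rag1-/- replicate 2 and WT replicate 3, and neither were Fosl2, Jund, Batf3, Atf3, Jdp2, Nab1 and Nab2.

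A broader list of 35 rapid-response genes, such as phosphatases, kinases and Krüppel-like factors induced with the same stimuli, gave 0 called by limma-trend and 10 at an unadjusted p of at most 0.05, 9 of them lower in Rag1-/- (all genes 11.6% in either direction). Rag1-/- libraries lay wholly below WT for 10 of the 35 (14.4% of all genes) and wholly above for Plk3 (3.98%), and the estimate was lower for 30 with a median of -0.16. Klf2, a Krüppel-like factor best known from endothelium and lymphocytes, was at 13.7, 14.8 and 14.4 CPM in WT and 10.1, 10.7 and 10.7 CPM in Rag1-/- (log2 fold change -0.44, SE 0.065, limma-trend adjusted p = 0.124). Sgk1, a kinase gene induced by glucocorticoids, was at 86.7, 149 and 163 CPM in WT and at 59.7, 51.8 and 60.9 CPM in Rag1-/-. Its log2 fold change was -1.16 (SE 0.20, limma-trend adjusted p = 0.211), and it was called without WT replicate 1, its lowest WT library, at -1.44. With the Xist term, which compares Rag1-/- with WT replicate 3 alone, its estimate was -1.50. WT replicate 1 was the highest library for 9 of the 35 (20.1% of all genes) and WT replicate 3 for 16 (28.7%).

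**Figure D5:**
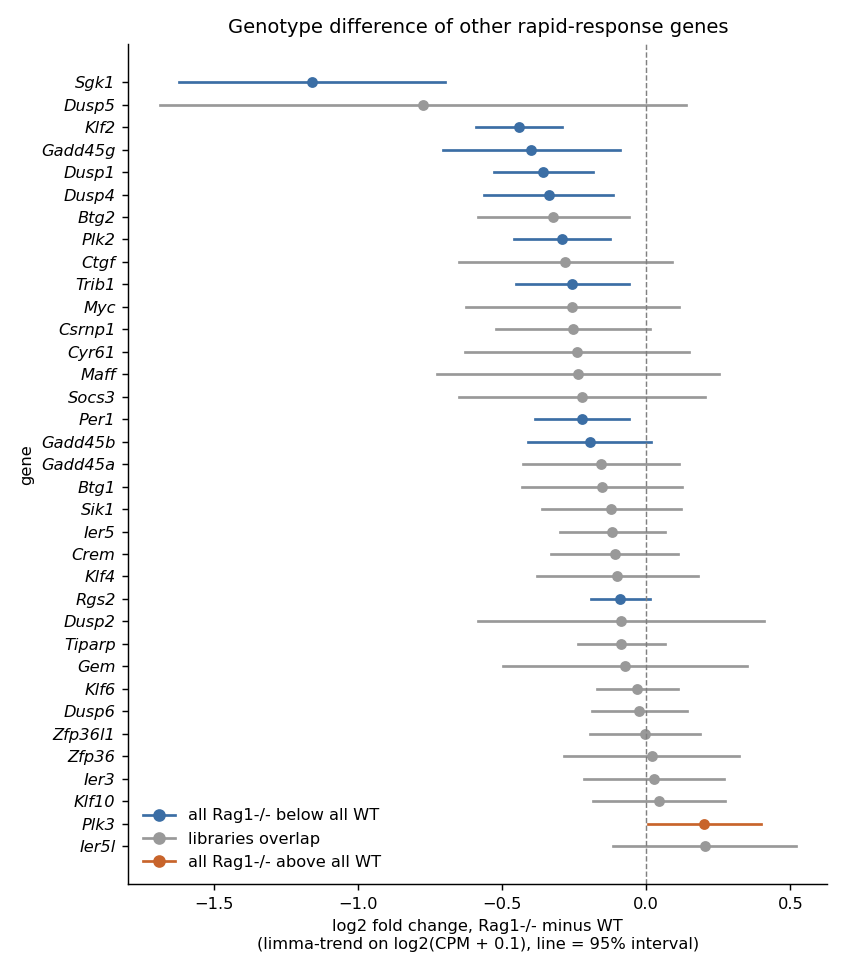
Log2 fold change (Rag1-/- relative to WT) with limma-trend 95% intervals for 35 other rapid-response genes, coloured by whether the 3 Rag1-/- libraries lay below (blue), above (orange) or among (grey) the 3 WT libraries. Of the 35 estimates 30 are below 0, with Sgk1 at -1.16 the farthest, and none was called after adjustment.

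Genes upstream and downstream of the immediate early genes were read from 2 further lists. Of 28 factors and kinases that act upstream, 5 were lower and 0 higher at an unadjusted p of at most 0.05 (11.6% of all tested genes in either direction), 0 were called by limma-trend, and the median log2 fold change was -0.10 (all genes -0.051). Mkl2, an SRF co-activator, had an estimate of -0.26 (limma-trend adjusted p = 0.340). Of 15 delayed activity genes of neurons 2 were lower and 0 higher at that threshold, with a median of -0.080 and 0 called. The members named are the secreted peptide precursors Vgf, at -0.18, and Scg2, at -0.13 (limma-trend adjusted p = 0.335 and 0.372). Over all alternatives Vgf ran from -0.23 to -0.084 and Scg2 from -0.18 to -0.085. The delayed list was highest in summed level in WT replicate 1, at 969 CPM, with 897 and 913 CPM in the other WT libraries and 845 to 856 CPM in the libraries labelled Rag1-/-, which lay below all 3 WT libraries. By gene, 9 of the 15 estimates were below 0 and 6 above, against 67.7% below over all tested genes. Rag1-/- libraries lay wholly below WT for 2 of the 15 (14.4% of all genes).

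Lists for other influences on these genes were read in the same way, and limma-trend called 0 genes in each. Over all tested genes, 67.7% of estimates were below 0, 11.6% had an unadjusted p of at most 0.05 and the median was -0.051. All 12 glucocorticoid response genes had estimates below 0 (3 with an unadjusted p of at most 0.05, median -0.24), but all 12 were highest in WT replicate 3, whose summed level was 1475 CPM, while WT replicates 1 and 2, at 1141 and 1153 CPM, lay within the Rag1-/- range of 1059 to 1253 CPM. Estimates were also below 0 for all 9 heat shock genes (4, median -0.12) and 11 of 14 circadian clock genes (4, median -0.12). Smallest in p were Nfkbia at -0.50 and Errfi1 at -0.29, Hsph1 at -0.22 and Hspa1a at -0.39, and Nr1d2 at -0.14 and Cry2 at -0.11. Nfkbia was -0.83 with the Xist term, which compares Rag1-/- with WT replicate 3 alone, and -0.33 without that library. Over all alternatives Nr1d2 ran from -0.18 to -0.050. Among cell type markers, oligodendrocyte genes were higher in Rag1-/- for 8 of 8 (7 with an unadjusted p of at most 0.05, for example Mog at 0.28 and Mobp at 0.25), with summed levels of 19771 to 22967 CPM in WT and 25522 to 26818 CPM in Rag1-/-. Oligodendrocyte precursor genes were higher for 4 of 6 (3 at that p, median 0.11), astrocyte genes for 6 of 8 (1, median 0.048) and red blood cell genes for 6 of 6 (0, median 0.32, for example Alas2 at 0.63 and Hbb-bs at 0.42, which turned to -0.33 and -0.34 with the Xist term and were 0.30 and 0.087 without WT replicate 1 and 1.10 and 0.81 without WT replicate 3). Estimates were below 0 for 8 of 8 choroid plexus genes (2, median -0.39), 7 of 8 meningeal fibroblast genes (2, median -0.12), 6 of 6 pituitary genes (4, median -2.83) and 7 of 7 granulocyte genes (5, median -1.21), and for 8 of 12 neuronal genes (1, median -0.057). Slc17a7, a vesicular glutamate transporter and the neuronal gene with the smallest p, was at -0.34 (limma-trend adjusted p = 0.373). Its estimate was -0.66 with the Xist term, which compares Rag1-/- with WT replicate 3 alone, and -0.18 without that library. Summed granulocyte markers were at 5.62 to 18.5 CPM in WT and 3.41 to 6.09 CPM in Rag1-/-, those of microglia at 263 to 294 and 263 to 283 CPM, and those of endothelium at 406 to 422 and 373 to 406 CPM. These differences lie beside the genotype estimates of the immediate early genes, and their part in them was not tested.

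The genes whose profile over the 6 libraries was most like the mean profile of the immediate early genes, among 13827 genes outside the lists that averaged 1 CPM or more, were Csnk2a2 (Pearson r 0.983, Spearman rho 0.943), Soga3 (0.980 and 0.943), Wdhd1 (0.976 and 0.943), Copz1 (0.974 and 0.943) and Zfp810 (0.969 and 1.0). Without WT replicates 1 and 3, r was 0.889, 0.749, 0.810, 0.594 and 0.700 in the same order. These are the 5 closest of many genes over 6 points that share their libraries and scaling, and are given as a description. Csnk2a2, a catalytic subunit of casein kinase 2, was at 22.2 CPM in WT replicate 1 and 19.3 to 20.7 CPM in the other libraries, a narrower range than that of any of the 10 genes but Jun.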

How the data were processed

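RNA from 3 WT and 3 Rag1-/- mouse brainstems (1 mouse per library) was sequenced on an Illumina HiSeq. The authors aligned the reads with STAR 2.5.3a to mm10, counted them on RefSeq transcripts in Partek Flow and deposited, for 18058 genes, counts scaled to library size (CPM). The summed CPM of these genes is 79.1% to 80.4% of the scaling total, and every value contains an offset of 0.0001. Whether counting used strand is not given in the sources used here. Dividing low values by the step taken as 1 read gave a whole number, within 0.1 read, for 85.0% to 86.5% of them. Reads could therefore not be recovered, and count models were not used. The step gave the depth and the floor of 3 reads, which cover counting error only.

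Samples were grouped by genotype label. log2(CPM + 0.1), a scale that understates changes of low genes, was tested for the 16762 genes averaging 0.1 CPM or more by limma-trend (limma 3.58.1, R 4.3.3), the kind of model the methods name, with Benjamini-Hochberg adjustment over all of them. Single genes were also compared by an exact two-sided permutation test. Code was tested on simulated data. Descriptions used Python 3.11.15 with pandas 2.3.3, numpy 2.4.6, scipy 1.17.1 and matplotlib 3.10.9. Gene coordinates (mm10) follow the deposited table, and the end is printed 1 base before its stop, because 70.9% of 10271 genes with the RefSeq start stop 1 base past the RefSeq end. CPM per kb used the length of the longest GENCODE transcript of each gene that carries a RefSeq accession.

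The 10 genes and all lists were chosen with earlier results of these data known. Named were these 10, Rag1 and Xist, every tested relative, per other list any called gene or otherwise at most the 2 smallest unadjusted p, and the 5 genes most alike in profile, except 1 upstream gene that is not reported here. Plk3, Batf, Fosl1, and the library totals of marker lists were named after their values were seen. Alternatives were other pseudocounts, filters, scalings and variance models, a replicate block, an Xist term and leaving out each library.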

Additional observations from a re-analysis of the deposited data

How the results depend on the processing

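No alternative called any of the 10 immediate early genes. The number of all genes called by limma-trend was 8 as reported, 4 with a pseudocount of 0.01, 4 with no filter, 4 with a mean CPM of at least 1 (which leaves out Egr2 and Npas4), 5 after quantile normalization, 2 without the mean-variance trend, 134 with a term for high Xist, and 2 to 24 with 1 library left out (24 without WT replicate 3). With the replicate block it was 3. The replicate numbers do not pair the mice (correlations of deviations 0.0926, -0.220 and -0.0183). In this balanced design the block cannot move a fold change, so the median log2 fold change of the 10 genes stays at -0.14 by construction. That median lay between -0.19 and -0.053 with 1 library left out, nearest to 0 in these without WT replicate 1, and was -0.035 with the Xist term, -0.070 with a mean CPM of at least 1 and -0.073 after quantile normalization.

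With 1 library left out, 0 to 3 of the 10 reached an unadjusted p of 0.05 (Fosb, Egr2 and Nr4a1 without WT replicate 2, where 12.1% of all genes did, Fos without WT replicate 3, 11.6%, and Nr4a1 without Rag1-/- replicate 2, 10.3%), and 0 to 3 did not overlap between genotypes. These were Fosb, Egr2 and Nr4a1 without WT replicate 2 (31.0% of all genes), Fos, Jun and Npas4 without WT replicate 3 (30.9%) and Fos, Nr4a1 and Npas4 without Rag1-/- replicate 2 (29.5%). The median within-genotype SD was 0.154 to 0.226 over the libraries left out.

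Some log2 fold changes turned direction, most of them small. With a pseudocount of 1, Nr4a3 was -0.00232. Quantile normalization gave 0.023 for Ier2, 0.10 for Atf3 and 0.0073 for Copz1, and median-of-ratios size factors gave 0.0090 for Atf3 and 0.0016 for Copz1. With the Xist term, Jun was -0.050, Junb 0.10, Ier2 0.036, Jund -0.10, Atf3 0.30, Nr4a3 -0.084, Hbb-bs -0.34 and Alas2 -0.33 (0.42 and 0.63 as reported). With 1 library left out the range was -0.014 to 0.060 for Jun, -0.19 to 0.048 for Junb, -0.090 to 0.027 for Ier2, -0.10 to 0.13 for Egr1, -0.012 to 0.14 for Arc, -0.023 to 0.069 for Jund, -0.19 to 0.15 for Atf3, -0.019 to 0.084 for Jdp2, -0.28 to 0.15 for Egr3, -0.35 to 0.11 for Egr4, -0.14 to 0.27 for Nr4a2, -0.22 to 0.19 for Nr4a3 and -0.19 to 0.11 for Nab2. The cause was not tested. Rag1 lost its call without the trend and without any 1 of the Rag1-/- libraries, at a log2 fold change of 3.12 to 3.42. Sgk1 and Prl were called without WT replicate 1. Over all named genes, 526 of 544 values under other settings and 339 of 366 with 1 library left out kept their direction and their side of the threshold.

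The number of mice, 3 per genotype, and the spread of these genes set the width of the intervals in the report. Egr2 lay nearest to the floor, and the part of depth in its interval was not tested. Count models could not be used, since the CPM values did not convert back into whole reads.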
